A study of Homo sapiens with 16 samples.

Results

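The human alkaline phosphatase genes were followed across 16 Agilent 1-colour expression arrays of 16HBE bronchial epithelial cells. The members are ALPP, ALPPL2, ALPI and ALPL, 4 of the 42665 gene names on the array, and each is read by 1 probe printed as 1 spot. All non-control probes carrying a member's name were taken. The array files list 3 of the 4 under these names and ALPPL2 under its current symbol ALPG, so that probe was matched through the synonym. ALPP had been picked because its signal fell with HGF in these same arrays. Its HGF differences are therefore given as a description, with no test. ALPPL2 and ALPI were added as its neighbours on chromosome 2 and ALPL as the relative on chromosome 1.

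16HBE is an immortalised, nontumorigenic line of human bronchial epithelium. 16HBE-WT cells carry unedited MET, the receptor of hepatocyte growth factor (HGF), and 16HBE-ex14 cells are CRISPR/Cas9-edited so that exon 14 of MET, which encodes its juxtamembrane domain, is skipped. The 4 groups, with 4 arrays each, were both genotypes untreated, 16HBE-WT and 16HBE-ex14, and both with the ligand, named 16HBE-WT+HGF and 16HBE-ex14+HGF. All cells were kept 2 h without serum, and the +HGF groups then received 20 ng/mL HGF for 24 h. The edited cells were clone F alone, so a difference between genotypes here is a difference between that clone and 16HBE-WT. The methods place the 4 replicates in weekly cultures, but the files do not tell which array came from which week. The arrays lay on 2 slides, and each slide held 2 arrays of every group. MET itself was at similar levels in all groups, with log2 differences of 0.03 to 0.17, none of which passed the test. The probe does not read exon skipping. Of the cell type markers, all 6 epithelial ones were well above background on all 16 arrays. Of the others on the array, COL1A2, COL3A1, DCN and PECAM1 were not well above background on any array, while 2 of 5 fibroblast, 2 of 3 endothelial and 2 of 3 blood markers were on all 16.

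Alkaline phosphatases are zinc enzymes that sit on the outer face of the plasma membrane by a glycosylphosphatidylinositol (GPI) anchor and release phosphate from many substrates. ALPL, the tissue-nonspecific enzyme, acts in bone, liver and kidney, where it splits pyrophosphate, the inhibitor of mineral growth, and pyridoxal phosphate, the circulating form of vitamin B6. The other members have narrower sites. ALPP is the placental enzyme of the syncytiotrophoblast and is also made by some tumours, ALPPL2 is the germ cell enzyme, and ALPI belongs to the brush border of the intestine, where it removes phosphate from bacterial lipopolysaccharide.

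ALPP, ALPPL2 and ALPI lie side by side on chromosome 2 and are closely related in sequence, so the probes and promoters are shown to tell them apart. On hg19 the ALPP probe covers chr2:233247198-233247257, the ALPPL2 probe chr2:233275347-233275406, 28.1 kb further on, and the ALPI probe chr2:233323933-233323992, 76.7 kb from ALPP. The ALPL probe spans chr1:21903084-21903884, which is 801 bases for a probe of 60, so it crosses an exon junction. The array annotation starts the ALPP and ALPPL2 probes at bases 2569 and 2416 of their transcripts, toward the 3′ end, and the ALPI and ALPL probes at 1751 and 1522. The limits of exons and untranslated parts were not analysed here. The opening 30 bases of the 3 chromosome 2 probes and the whole ALPL probe read as follows.
ALPP probe: aaggtccctccccagacatctggacactgg
ALPPL2 probe: tcattaccttccctccctgggcctccattc
ALPI probe: agcgaacacacacaggtgtcctgccgttgg
ALPL probe: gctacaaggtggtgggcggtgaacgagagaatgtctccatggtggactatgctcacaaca
The longest run of bases shared by any pair of these 60-base probes was 8, between ALPP and ALPPL2. Whether a probe also binds transcripts of the other members was not tested.

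The promoters of ALPP and ALPPL2 are shown because they are alike in sequence, while the signals of these genes followed different patterns over the groups. Whether the promoters bear on that was not tested. The 150 bases before the start of each gene, from RefSeq on GRCh38.p14, plus strand, lie at chr2:232378601-232378750 for ALPP, chr2:232406694-232406843 for ALPPL2 and chr2:232456003-232456152 for ALPI. Capitals mark 4 motifs, searched on both strands and chosen after the windows had been read: TTTAAA, which resembles the box that places the start of transcription, AGGTCA, the core bound by many nuclear receptors, GGGCGGGG, a box bound by Sp1-like factors, and CACACCC, a box bound by Kruppel-like factors.
ALPP promoter: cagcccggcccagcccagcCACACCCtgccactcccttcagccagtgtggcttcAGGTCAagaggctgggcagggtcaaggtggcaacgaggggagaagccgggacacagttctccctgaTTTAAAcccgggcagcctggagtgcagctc
ALPPL2 promoter: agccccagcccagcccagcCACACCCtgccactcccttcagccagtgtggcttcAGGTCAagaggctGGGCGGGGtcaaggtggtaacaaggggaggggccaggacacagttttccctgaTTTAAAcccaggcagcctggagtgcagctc
ALPI promoter: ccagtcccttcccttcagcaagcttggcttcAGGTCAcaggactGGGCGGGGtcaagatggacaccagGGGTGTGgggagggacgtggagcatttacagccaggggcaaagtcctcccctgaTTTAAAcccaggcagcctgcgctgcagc
ALPP and ALPPL2 were identical at 138 of 150 aligned bases (92.0%), with 12 mismatches and no gap. ALPI matched either of them at 105 of 175 alignment columns (60.0%). The remaining columns were 20 mismatches and 50 gap columns, so most of the shortfall came from gaps. TTTAAA began at position -30 in ALPP and ALPPL2 and at -28 in ALPI, counted back from the start of the gene, and stood in 6.2% of 35116 RefSeq promoter windows of the same length. AGGTCA stood in all 3 promoters and in 7.6% of all windows. CACACCC stood in all 3, in ALPI on the opposite strand, and in 4.3% of all windows. GGGCGGGG stood in the ALPPL2 and ALPI promoters, in 18.2% of all windows, and not in the ALPP window. The matches are letters in a window and say nothing of which factor is bound.

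ALPP stepped down across the 4 groups. Values are log2 signals after subtraction of each array's 75th percentile, so a step of 1 is a factor of 2. The 4 16HBE-WT arrays read 5.28, 4.68, 4.83 and 5.19 (mean 4.99 ± 0.29, SD, n = 4). The 16HBE-WT+HGF arrays read 4.24, 4.32, 3.92 and 4.17 (4.16 ± 0.17, SD, n = 4). The 16HBE-ex14 arrays read 3.23, 3.57, 2.98 and 3.63 (3.35 ± 0.31, SD, n = 4). The 16HBE-ex14+HGF arrays read 1.39, 1.35, 0.44 and 0.73 (0.98 ± 0.47, SD, n = 4). No neighbouring groups in this order overlapped, and ALPP was well above background on all 16 arrays. In the deposited units, ALPP went from a mean intensity of 5683 in 16HBE-WT to 458.0 in 16HBE-ex14+HGF. In bulk RNA, fewer ALPP-expressing cells and less ALPP RNA per cell cannot be told apart.

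Without HGF, ALPP was 3.12-fold lower in 16HBE-ex14 than in 16HBE-WT, a log2 difference of -1.64 (SE 0.22, 95% interval -2.11 to -1.17). All 4 16HBE-ex14 arrays lay below all 4 16HBE-WT arrays, and limma gave a Benjamini-Hochberg adjusted p of 0.000143 over 34600 probes. The untreated arrays of both genotypes also entered the choice of ALPP, made on its fall with HGF. This test is therefore not independent of that choice. Calls required an adjusted p below 0.05 and more than a 1.5-fold change. Of all tested probes, 9.43% were called in this comparison, 4.93% of the total as lower, and 10.4% lay lower without overlap. The ALPP difference was -1.58 on slide 1 and -1.70 on slide 2. Without any scaling between arrays it was -1.27, and it stayed called under all alternative settings and with any array left out, with adjusted p up to 0.0033.

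The remaining ALPP differences also use the arrays on which it was picked and are descriptions. HGF went with a log2 difference of -2.37 in 16HBE-ex14, which is 5.19-fold lower, and the 4 treated arrays lay below the 4 untreated ones, as did 4.37% of all probes. The difference was -2.03 on slide 1 and -2.72 on slide 2. In 16HBE-WT the HGF difference was -0.83, or 1.78-fold lower, again with no overlap (1.02% of all probes), and it was -0.70 and -0.96 on the 2 slides. The HGF difference in 16HBE-ex14 was thus more negative by 1.54 on the log2 scale (difference -1.54, SE 0.31). With HGF in both genotypes, ALPP was 9.11-fold lower in 16HBE-ex14+HGF than in 16HBE-WT+HGF (log2 difference -3.19). For scale, limma called 687 probes (1.99%) for HGF in 16HBE-ex14, 0.936% of all as lower, and 0 of 34600 in 16HBE-WT, where 1681 had an unadjusted p under 0.05 and the smallest adjusted p was 0.561. It called 0 probes for the difference between the HGF responses, with 1586 at an unadjusted p under 0.05.

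A marker of the epithelium moved alongside. KRT5, the keratin of basal airway cells, had means of 2.64 in 16HBE-WT and 2.01 with HGF, and of 0.0635 in 16HBE-ex14 and -2.25 with HGF, on the same log2 scale. Its part in the ALPP result was not tested. Of the other 5 epithelial markers, EPCAM, CDH1, KRT8, KRT18 and KRT19, the widest span of group means was that of CDH1, from 3.14 to 3.74 on this scale.

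ALPPL2 did not share the pattern. Its arrays read 1.77, 1.66, 1.38 and 1.26 in 16HBE-WT and 1.72, 1.60, 1.20 and 1.27 in 16HBE-WT+HGF. They read 1.67, 1.53, 1.30 and 0.94 in 16HBE-ex14 and 1.61, 1.86, 1.18 and 1.37 in 16HBE-ex14+HGF. All 4 groups overlapped, with means of 1.52 ± 0.24, 1.45 ± 0.25, 1.36 ± 0.32 and 1.504 ± 0.296 (SD, n = 4 each), and the probe was well above background on all 16 arrays.

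The intervals bound how far ALPPL2 could have moved. HGF in 16HBE-ex14 gave a log2 difference of 0.14 (95% interval -0.26 to 0.55, limma adjusted p = 0.814), so a fall of the size seen for ALPP lies outside the interval. HGF in 16HBE-WT gave -0.07 (-0.47 to 0.34, limma adjusted p = 1.000). The genotypes differed by -0.16 without HGF (-0.56 to 0.25, limma adjusted p = 0.638) and by 0.06 with HGF (-0.35 to 0.46, limma adjusted p = 0.883). No ALPPL2 difference passed the test. Over the 16 arrays the ALPP and ALPPL2 levels had a Pearson r of 0.05, given as a description since the arrays share groups and slides.

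ALPI was near the limit of detection. It was well above background on all 4 16HBE-ex14 arrays, on 1 of 4 in 16HBE-WT, and with HGF on 1 of 4 in 16HBE-WT+HGF and 2 of 4 in 16HBE-ex14+HGF. The array values ran from -5.35 to -3.96 in 16HBE-WT and from -4.40 to -3.71 in 16HBE-ex14, and with HGF from -5.91 to -3.67 in 16HBE-WT+HGF and from -4.98 to -4.06 in 16HBE-ex14+HGF. The lowest value called well above background on an array was -4.39 (median over arrays), so many of these readings sit at that limit. The log2 differences were 0.41 and -0.03 between genotypes without and with HGF, -0.46 for HGF in 16HBE-ex14 and -0.02 for HGF in 16HBE-WT. None was called (limma adjusted p of 0.552, 0.9754, 0.690 and 1.000). The interval for HGF in 16HBE-ex14 ran from -1.33 to 0.41, so a change of 2-fold lies within it.

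ALPL was called lower in 16HBE-ex14 in both genotype comparisons, though not firmly, and was not called for HGF. The 16HBE-WT arrays read -2.02, -1.65, -1.59 and -2.04 (mean -1.83 ± 0.24, SD, n = 4). The 16HBE-ex14 arrays read -1.99, -2.65, -2.99 and -2.80 (mean -2.61 ± 0.43, SD, n = 4). One 16HBE-ex14 array, at -1.99, fell within the 16HBE-WT range, and the other 3 lay below it. With HGF, the 16HBE-WT+HGF arrays read -1.30, -1.60, -1.25 and -1.68 (mean -1.46 ± 0.21, SD, n = 4). The 16HBE-ex14+HGF arrays read -2.36, -1.94, -1.95 and -2.23 (mean -2.12 ± 0.21, SD, n = 4), all below the 16HBE-WT+HGF arrays, as were 11.5% of all probes in that comparison.

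Without HGF, ALPL was 1.72-fold lower in 16HBE-ex14 (log2 difference -0.78, SE 0.20, limma adjusted p = 0.0122), by -0.48 on slide 1 and -1.08 on slide 2. With HGF it was 1.58-fold lower (log2 difference -0.66, SE 0.20, limma adjusted p = 0.0275), by -0.70 and -0.62 on the 2 slides. For comparison, 10.8% of all tested probes were called between the genotypes with HGF, 5.43% as lower. Without HGF, ALPP and ALPL were called lower, 2 of the 4 members, beside 4.93% of all tested probes called lower there. ALPP had been picked for its fall with HGF on these same arrays. The count of 2 is therefore not independent of that choice. The ALPL calls are not firm. Without HGF the call was lost under normexp background correction (-0.45), without scaling between arrays (-0.41) and when only the compared groups were fitted (adjusted p = 0.0567). With HGF it was lost when 16HBE-ex14+HGF replicate 1 or 4 or 16HBE-WT+HGF replicate 1 or 3 was left out, with values of -0.58, -0.62, -0.61 and -0.59.

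For HGF, ALPL gave 0.49 in 16HBE-ex14 (95% interval 0.07 to 0.91, limma adjusted p = 0.255) and 0.37 in 16HBE-WT (-0.05 to 0.79, limma adjusted p = 1.000). Neither was called, although without 16HBE-ex14 replicate 1 the former reached 0.70 with an adjusted p of 0.0424. The HGF responses in the genotypes differed by 0.12 (SE 0.28), which did not pass the test. From highest to lowest, ALPL means ran 16HBE-WT+HGF, 16HBE-WT, 16HBE-ex14+HGF, 16HBE-ex14, and each neighbouring pair in that order overlapped. The r of ALPL with ALPP over the 16 arrays was 0.31.

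**Figure D1:**
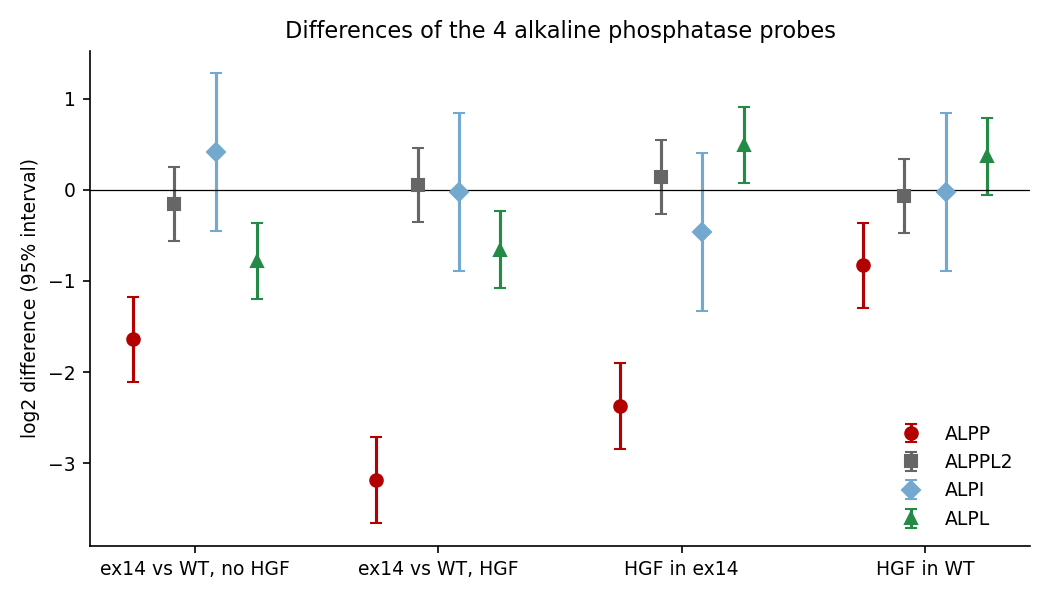
Log2 differences of the 4 alkaline phosphatase probes in 4 comparisons, with 95% intervals from the limma fit. The 4 ALPP differences lie below 0, ALPL lies below 0 between the genotypes (-0.78 and -0.66), and the ALPPL2 and ALPI intervals all include 0. For HGF in 16HBE-ex14 the ALPL interval lies above 0 (0.07 to 0.91), but the difference was not called. The ALPP values for HGF and with HGF are descriptive, since ALPP was picked on them.

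Other genes handle the same substrates outside the cell. ENPP1, the ectoenzyme that makes extracellular pyrophosphate from ATP and so supplies what ALPL removes, was the gene of this group with the clearest fall. ENPP1 read 0.68, 1.17, 0.71 and 1.14 in 16HBE-ex14 and -0.05, -0.20, -0.25 and -0.16 in 16HBE-ex14+HGF. The groups did not overlap, and HGF gave a log2 difference of -1.09 (SE 0.14, limma adjusted p = 0.00157). ENPP1 was also lower in 16HBE-ex14 than in 16HBE-WT, by a log2 difference of -1.07 without HGF and -1.84 with HGF (limma adjusted p = 0.000142 and 1.13e-06). In 16HBE-WT, where its means were 1.99 and 1.67, the HGF difference of -0.33 was not called.

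Of 26 genes listed for extracellular nucleotides, pyrophosphate, phosphate and vitamin B6, 22 were tested. With HGF in 16HBE-ex14, 2 rose and 2 fell (18.2%, against 2.1% of all genes tested), with a median log2 difference of 0.14 beside 0.06 over all genes. SLC20A1, a sodium-phosphate cotransporter, rose by 0.84 (limma adjusted p = 0.00371), and ENTPD8, which hydrolyses nucleoside triphosphates outside the cell, fell by 1.00 on the log2 scale (limma adjusted p = 0.0127). NT5E, the GPI-anchored enzyme that turns AMP into adenosine, rose by 0.96 (limma adjusted p = 0.0373) and is named after its value was seen. The NT5E call was lost in 8 of 16 fits that left out an array, and that of ENTPD8 without 16HBE-ex14 replicate 2 or 4. The count of 4 ranged from 2 to 6 when an array was left out, and was 2 without 16HBE-ex14 replicate 2 or 4. Between the genotypes, P2RY2, a receptor for extracellular ATP and UTP, was higher in 16HBE-ex14 by 0.62 without and 1.19 with HGF, and ADORA1, an adenosine receptor, by 0.67 and 1.10. The P2RY2 call without HGF was lost without 16HBE-ex14 replicate 3 or 16HBE-WT replicate 1 and under quantile normalization. That of ADORA1 without HGF was lost without 16HBE-WT replicate 2, and both ADORA1 calls under normexp correction. In all, 2 were higher and 1 lower without HGF (13.6%, against 9.26% of all genes) and 3 higher and 3 lower with HGF (27.3%, against 10.6%). The 6 tested acid phosphatases, which split phosphate esters at low pH, gave 0 calls in limma in every comparison, with ACP4 closest for HGF in 16HBE-ex14 at 0.33 (adjusted p = 0.498).

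The GPI anchor ties alkaline phosphatases to the membrane. Of 29 genes of its synthesis and attachment, 28 were tested and 0 were called by limma for HGF, the smallest p in 16HBE-ex14 being that of PGAP3, a remodelling enzyme (-0.43, adjusted p = 0.131). Between the genotypes, PIGQ and PIGL, which act at the opening steps of the anchor, were higher in 16HBE-ex14 by 0.78 each without HGF and by 0.70 and 0.72 with it. PIGZ, a mannosyltransferase, was lower by a log2 difference of -0.92 and -1.15. These were the only 3 of the 28 genes called, the same 3 with and without HGF, beside 9.26% and 10.6% of all genes.

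Among 33 tested genes of other GPI-anchored surface proteins, 3 rose and 5 fell with HGF in 16HBE-ex14 (24.2%, against 2.1% of all genes), with a median log2 difference of -0.04 beside 0.06 over all genes. GPC1, a heparan sulfate proteoglycan, fell by 0.71 on the log2 scale, CD55, a complement inhibitor, fell by 0.80, and CD24, an epithelial surface glycoprotein, fell by 1.14 (limma adjusted p = 0.00162, 0.00281 and 0.00346). The others, named after their values were seen, were TFPI and EFNA1, lower, and CD59, LY6K and NT5E, higher. Leaving out an array ended the TFPI call in 1 of 16 fits. For EFNA1 and CD59 this number was 5 each, for LY6K 6 and for NT5E 8. The count of 8 ranged from 3 to 9 when an array was left out, the lowest without 16HBE-ex14 replicate 2, and was 4 without 16HBE-ex14 replicate 1 or 4 or 16HBE-ex14+HGF replicate 3 or 4. Between the genotypes, BST2, an interferon-induced antiviral protein, was lower in 16HBE-ex14 by a log2 difference of -2.84 without and -3.25 with HGF. VNN1, a pantetheinase, was lower by -1.81 and -2.001, and CD24 by -1.96 and -2.70. In this list 2 genes were higher and 6 lower without HGF (24.2%, against 9.26% of all genes) and 1 higher and 9 lower with HGF (30.3%, against 10.6%).

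The neighbours of ALPP on chromosome 2 were tested for HGF as well. Of 37 tested genes within 1 Mb, 2 were called in 16HBE-ex14 (5.41%, against 2.1% of all genes). The one nearest to ALPP was ECEL1P2, a pseudogene whose probe lies 3.34 kb from the ALPP probe at chr2:233250482-233250541 (hg19). The array lists its coordinates in falling order, the reverse of the ALPP probe. ECEL1P2 read -1.83, -1.07, -2.18 and -1.18 in 16HBE-ex14 and -2.51, -2.64, -3.17 and -2.82 in 16HBE-ex14+HGF, with no overlap. HGF gave a log2 difference of -1.22 (SE 0.23, limma adjusted p = 0.00988), a call that ended under normexp background correction, with only the compared groups and without scaling between arrays. In 16HBE-WT its HGF difference was -0.42, not called. ECEL1P2 was lower in 16HBE-ex14+HGF than in 16HBE-WT+HGF by a log2 difference of -1.498 (limma adjusted p = 0.000319). Without HGF the difference was -0.70 (limma adjusted p = 0.0461), a call lost in 16 of 28 alternatives, 10 of them fits that left out an array. ECEL1P2 thus lay next to ALPP and changed in the same direction in the comparisons in which it was called.

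ALPPL2, 28.1 kb from ALPP, and ALPI gave no HGF call. The other named genes tested within 250 kb gave HGF differences in 16HBE-ex14 of -0.67 for PRSS56 (a serine protease, 143.2 kb away), 0.02 for CHRND (a subunit of the muscle acetylcholine receptor), -0.14 for TIGD1, 0.13 for EIF4E2 (a cap-binding protein) and 0.21 for lnc-TIGD1-1, none called. The 3 features without a gene symbol in that window gave 0.24 to 0.32, also not called. Farther out, NGEF, 496.3 kb away, rose by 1.31 (limma adjusted p = 0.000674).

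Between the genotypes without HGF, 5 of the 37 neighbours were called (13.5%), all lower in 16HBE-ex14. Of all genes, 9.26% were called there in either direction, and 4.93% of all tested probes were called lower. PRSS56 had the largest difference among the 5 neighbours, -2.13 without and -2.21 with HGF. It was well above background on only 3 of 4 16HBE-ex14 arrays and 1 of 4 16HBE-ex14+HGF arrays. EFHD1, a mitochondrial calcium-binding protein 299.9 kb away, was lower by -1.07 and -1.17, and lnc-TIGD1-1 by -0.71 and -0.61. Normexp correction ended both EFHD1 calls. The lnc-TIGD1-1 call without HGF ended under normexp, quantile, median and no scaling, and that with HGF in 9 of 28 alternatives, 4 of them with an array left out. The fifth beside ECEL1P2 was INPP5D, a lipid phosphatase of blood cells 869.2 kb away, at -1.25, named after its value was seen and not called under normexp or without scaling. The median log2 difference over the 37 genes was -0.12 without HGF beside -0.02 over all genes. With HGF, 1 of the 37 was called higher and 5 lower in 16HBE-ex14 (16.2%, against 10.6% of all genes).

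**Figure D2:**
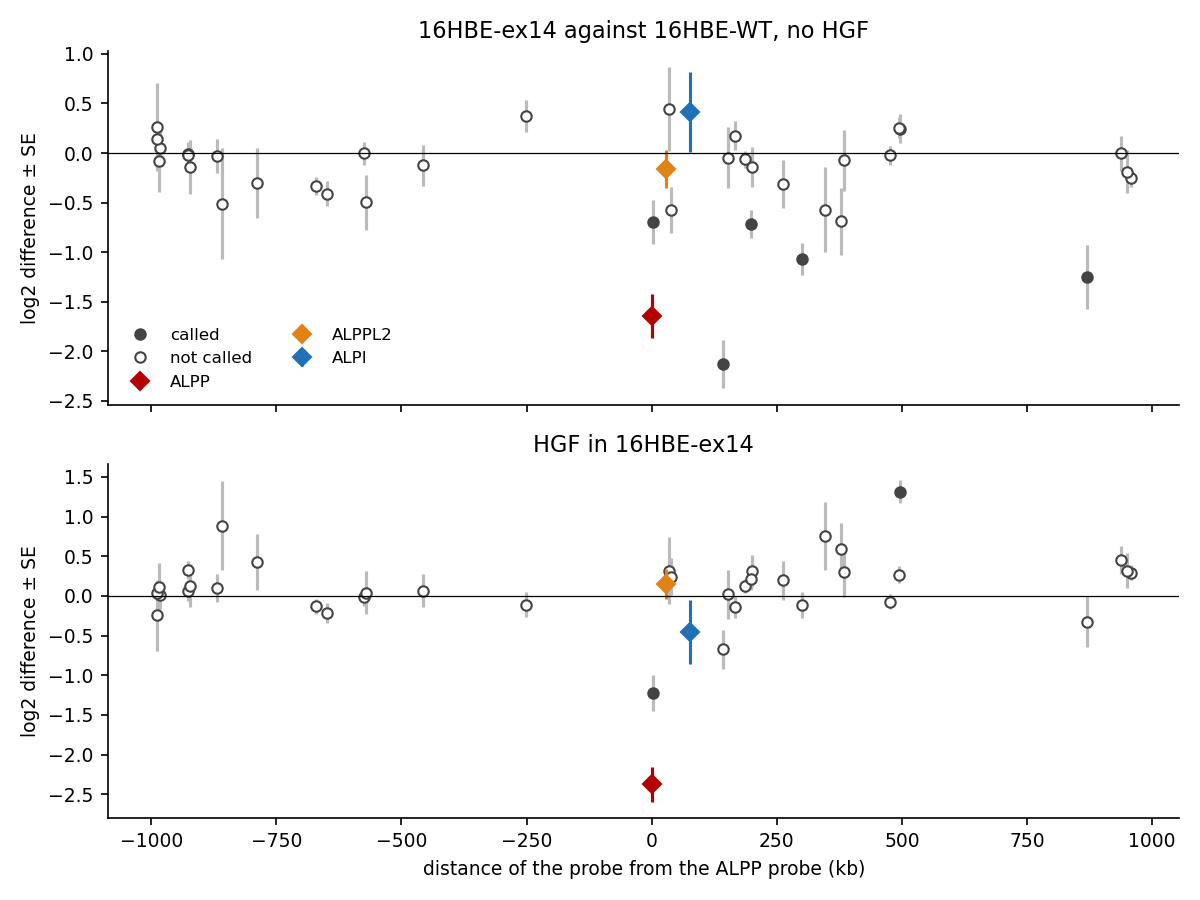
Log2 differences (SE bars) of the tested genes within 1 Mb of ALPP against the distance of their probe from the ALPP probe in kb, for 16HBE-ex14 against 16HBE-WT without HGF (top) and for HGF in 16HBE-ex14 (bottom); filled circles were called and diamonds are ALPP, ALPPL2 and ALPI. In the lower panel ALPP at -2.37 and ECEL1P2 at -1.22 stand below their neighbours, while ALPPL2 sits at 0.14.

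Genes whose levels followed ALPP most closely were sought among 14946 genes. These had 20492 named probes well above background on all 16 arrays, and the probe of highest mean signal stood for its gene. The measure was Pearson's r over the 16 arrays, which fall into 4 groups and share slides, so these values describe the group pattern and carry no test. The highest were RAB13, a small GTPase of tight junction traffic (0.983), FGD3, an exchange factor for CDC42 (0.981), CCDC80, a secreted matrix protein (0.981), JUND, a subunit of AP-1 (0.977), and ENPP1 (0.977). The pyrophosphate-making enzyme was therefore among the 5 genes most like ALPP by this measure. The group means of FGD3 were -0.42 in 16HBE-WT and -0.98 with HGF, then -1.71 in 16HBE-ex14 and -3.89 with HGF. In the same order, those of CCDC80 were 2.63, 2.26, 1.83 and 0.75, and those of RAB13 were 3.23, 3.15, 2.94 and 2.47. The HGF differences of RAB13, -0.48 in 16HBE-ex14 and -0.08 in 16HBE-WT, were not called. FGD3 read -2.86, -4.06, -4.36 and -4.28 on the 16HBE-ex14+HGF arrays. The lowest value well above background was -4.39 (median over arrays), so most of these lie near that limit.

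The lowest r with ALPP were those of FOXQ1 (-0.989) and FOXL1 (-0.981), which are forkhead transcription factors, DOCK4, an exchange factor for Rap and Rac (-0.980), HOXB-AS1, an antisense RNA of the HOXB cluster (-0.979), and VIM, the mesenchymal filament vimentin (-0.976). VIM means rose as those of ALPP fell, from -1.65 in 16HBE-WT through -0.64 with HGF and 0.996 in 16HBE-ex14 to 3.30 in 16HBE-ex14+HGF. FOXQ1 means ran 1.62, 2.20, 2.65 and 4.03.

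**Figure D3:**
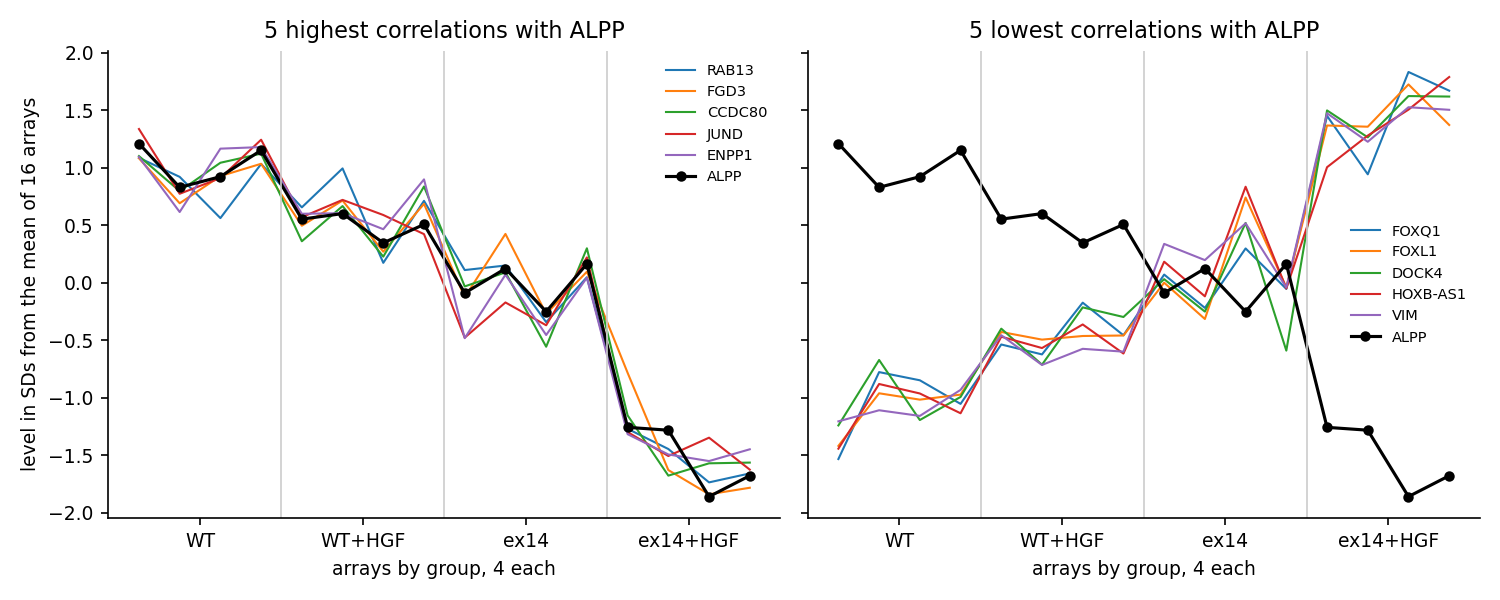
Levels on the 16 arrays, in SDs from each probe's mean, for ALPP (black) with the 5 genes of highest r (left) and the 5 of lowest r (right). Each gene is read by 1 probe, and arrays are in group order, 4 each. Group means step down with ALPP through the 4 groups on the left and step up on the right. The r values are 0.977 to 0.983 and -0.989 to -0.976. Levels in SDs do not show how far a gene moved.

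Genes of the tissues in which the narrow members are known were listed too. Of 18 tested placental and trophoblast genes, 2 rose and 0 fell with HGF in 16HBE-ex14 (11.1%, against 2.1% of all genes), and the median log2 difference was -0.0667 beside 0.06 over all genes. HSD3B1, a steroid-making enzyme of the placenta, rose by 1.84 (limma adjusted p = 0.0092), and PGF, placental growth factor, rose by 0.97 (limma adjusted p = 0.0268), a call lost in 5 of 16 fits that left out an array. Between the genotypes, PAPPA, a protease of pregnancy plasma, was higher in 16HBE-ex14 by 1.47 without and 1.65 with HGF, and TEAD4, a trophoblast transcription factor, by 0.84 and 0.76. HSD3B1 was lower in 16HBE-ex14 without HGF by a log2 difference of -1.46 (limma adjusted p = 0.00735) and was not called between the genotypes with HGF. In all, 4 placental genes were higher and 1 lower without HGF (27.8%, against 9.26% of all genes) and 2 higher and 1 lower with HGF (16.7%, against 10.6%).

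Of 17 tested genes of the intestinal brush border and its regulators, the setting of ALPI, 1 rose with HGF in 16HBE-ex14 (5.88%, against 2.1% of all genes), namely MME, a membrane peptidase (0.86, limma adjusted p = 0.0027). DPP4, another surface peptidase, was lower in 16HBE-ex14 by a log2 difference of -0.82 without HGF (limma adjusted p = 0.0409, lost in 8 of 16 fits that left out an array and, at 0.0595, with the array row as a block) and -1.08 with HGF (limma adjusted p = 0.00831). Without HGF it was the only call in this list (5.88%, against 9.26% of all genes), and with HGF 2 genes were higher and 1 lower (17.6%, against 10.6%).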

How the data were processed

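RNA of 16 cultures was hybridised to 1-colour Agilent arrays with probes of 60 bases. Per the file headers, the deposited intensity of a spot is the Feature Extraction processed signal, on a linear scale. A fitted spatial surface was subtracted, multiplicative detrending followed, and values below their error were replaced by a surrogate, and arrays were not scaled to each other. The series table deposited by the authors is identical. The 75th percentile of an array lay between 139.5 and 262.8, 49.0% to 60.3% of probes were well above background, and no spot was saturated (0 of 62976 per array). The number of arrays limits the precision.

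Processing used R 4.3.3, limma 3.58.1 and Python 3.11.15 with Biopython 1.88. Outlier spots were dropped, log2 taken, the 75th percentile subtracted, and spots of a probe averaged. Probes had to be well above background on 4 or more of the 16 arrays (34600 of 58201) and were tested with limma, with 1 mean per group and Benjamini-Hochberg adjustment within a comparison. Calls needed an adjusted p under 0.05 and over 1.5-fold change. In the lists, the tested probe of highest mean signal stood for its gene. The p-values set each difference against the spread between arrays within groups, with no term for the slide in the main fit. The fit was tested on simulated data.

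The members, lists and tests were chosen with earlier results of these data known. Named were the members, the 3 genes of each list with the smallest p for HGF in 16HBE-ex14 (or 1 where none was called), up to 3 called between the genotypes both with and without HGF, genes within 250 kb of ALPP, and the 5 highest and 5 lowest r. Symbols and hg19 positions come from the array annotation. Alternatives were normexp correction with an offset of 50, quantile, median and E1A spike-in scaling, other filters, outliers kept, blocks for slide or for array row, a trended robust prior, fewer groups, and each array left out. No scaling between arrays was added after seeing the data.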

Additional observations from a re-analysis of the deposited data

How the results depend on the processing

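All 5 ALPP differences kept their direction under all alternatives run (27 for the difference between the HGF responses, 28 for the others), and its tested difference without HGF kept its call. The array row, used as a block, changed no call among the members and ended that of DPP4 without HGF (0.0595), with ALPP at -1.64 (limma adjusted p = 0.000146), ALPL at -0.78 (0.0169) and 740 probes called for HGF in 16HBE-ex14. The row was not taken as a pairing: 20 of 24 same-row correlations of deviations exceeded 0.1 but not all did (0.0283 to 0.32), and 3 of 16 arrays correlated best with their own row. The deviations went with the slide, since pairs of other rows on the same slide were also above 0 (24 of 24, 0.0422 to 0.41) and 46 of 48 pairs on different slides were below 0. The slide as a block changed no call among the members. Without HGF, ALPL lost its call at -0.45 with normexp correction, -0.41 without scaling, and at -0.78 (adjusted p = 0.0567) with only the compared groups. With HGF it lost it at -0.44 with normexp, -0.57 with median scaling and -0.28 without scaling, and leaving out an array gave -0.73 to -0.58. For HGF in 16HBE-ex14, leaving out an array moved ALPL between 0.36 and 0.70, and the difference between HGF responses between -0.00369 and 0.33. Values near 0 that were never called changed sign, and the cause was not tested. ALPPL2 turned to 0.22 between the genotypes without HGF and without scaling, and to -0.0171 for HGF in 16HBE-ex14 with median scaling. With an array left out it ran from -0.0638 to 0.16 between the genotypes with HGF and from -0.16 to 0.0163 for HGF in 16HBE-WT. ALPI turned to -0.13 without HGF and to 0.0628 for HGF in 16HBE-WT with normexp. With HGF the ALPI genotype difference became 0.0607 with quantile normalization, 0.0651 with median scaling, 0.00624 with E1A scaling and 0.36 without scaling, and ran from -0.48 to 0.26 with an array left out, while HGF in 16HBE-WT ran from -0.31 to 0.44.

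Counts of called probes depended on the background and scaling. With normexp they were 1488 and 1816 between the genotypes without and with HGF, 413 for HGF in 16HBE-ex14 and 4 for the difference between the HGF responses. Without scaling they were 7098, 8205 and 234. HGF in 16HBE-ex14 gave 247 with only the compared groups and 347 to 968 with an array left out, HGF in 16HBE-WT gave 0 to 1, and the difference between the HGF responses gave 4 with a trended robust prior and 0 to 11 with an array left out. Median scaling moved the list medians for HGF in 16HBE-ex14 to -0.21 (GPI anchor synthesis), -0.20 (other GPI-anchored proteins), -0.0222 (nucleotides and pyrophosphate), -0.23 (placental genes), -0.0526 (brush border) and -0.0551 (neighbours of ALPP). E1A scaling moved 3 of them to -0.11 (other GPI-anchored proteins), 0.0659 (nucleotides and pyrophosphate) and -0.14 (placental genes), and the placental median ran from -0.0667 to -0.000572 with an array left out. Among other named genes, calls for HGF in 16HBE-ex14 also ended with only the compared groups for SLC20A1, ENTPD8, HSD3B1, MME and PGF, and without scaling for SLC20A1, ENTPD8, CD55, GPC1 and PGF. Those of TFPI, EFNA1, CD59, LY6K and NT5E ended under both of these settings. Normexp ended the PAPPA calls, and no scaling those of PIGZ and of DPP4 with HGF. Signal near background limits ALPI, and 16 arrays of 1 clone and its parent limit every comparison.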
